A study of Danio rerio with 3 samples.

Results

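The *let-7* family was examined in zebrafish embryos in which *lin-28a* or *lin-28b* had been knocked down. Its members were taken by name, as every probe called dre-let-7a to dre-let-7j on the array, which gave 10 of the 218 zebrafish miRNA probes. Total RNA came from embryos at 5 hpf (hours post-fertilization) that had been injected with control MO, Lin28A MO or Lin28B MO, and each of these conditions was measured on 1 of 3 miRCURY LNA arrays. The embryos of all conditions were of the wild-type AB strain and were injected soon after fertilization. According to the study's methods, the *lin-28a* MO and the *lin-28b* MO are splice-blocking antisense oligonucleotides against the first intron of their gene. RefSeq lists zebrafish *lin28ab*, with *lin28a* as a synonym, and a separate *lin28aa*, and neither these mRNAs nor *lin28b* were measured here. Hy3 was the dye of the sample and Hy5 that of a Universal Reference, and the text of the labels also speaks of a mixture of equal parts of the samples without naming a dye. Each probe was spotted 4 times per array, and the Hy3/Hy5 ratio of a probe is the mean over its 4 spots.

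The *let-7* miRNAs are among the most conserved animal miRNAs and mark the passage from proliferation to differentiation. Lin-28 proteins bind the loop of *let-7* precursors in mammals and block their processing, so that mature *let-7* accumulates late, and in *C. elegans* the same pair times larval stages. A well-known target of *let-7* is *lin-41*. Members of the family differ from each other by few bases, so a probe for one member may also take up signal of another, and the 10 probes are not independent measurements. How far the probes share signal was not tested.

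In RefSeq, 18 zebrafish *let-7* genes give the 10 mature forms. *dre-let-7a* is made from 6 genes, *dre-let-7c*, *dre-let-7d* and *dre-let-7g* from 2 each, and *dre-let-7b*, *dre-let-7e*, *dre-let-7f*, *dre-let-7h*, *dre-let-7i* and *dre-let-7j* from 1 each. An array probe reads all copies of a mature form together. Of the 18 genes, 6 have a gene of the miR-125, miR-100 or miR-99 families as their neighbour in the order of miRNA genes along the chromosome. These are both *let-7c* genes, both *let-7d* genes and 2 of the *let-7a* genes. In the others, *let-7b* neighbours a *let-7a* gene, as do *let-7e* and *let-7f*, and *let-7h* neighbours a *let-7g* gene.

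Most *let-7* probes were dim at 5 hpf. Only dre-let-7c had a mean Hy3 signal over 100, the limit for a high Hy3 signal used by the study, and it had this on the control MO array alone. The mean Hy3 of the 10 probes lay between 11.8 and 168 (median 20.2) in control, between 10.9 and 92.4 (median 17.0) with the *lin-28a* MO and between 10.7 and 61.5 (median 14.6) with the *lin-28b* MO. The middle of the 2082 unnamed probes with 4 spots, from the 25th to the 75th percentile, spanned 10.5 to 29.9, 9.47 to 22.1 and 9.26 to 20.7 on these arrays. At or below that 75th percentile lay 8, 6 and 7 of the 10 members, and at or below the median of the unnamed probes lay 3, 4 and 5. The deposited table carries no flag for probes above background, so which dim members carried a signal of mature *let-7* was not determined. With 1 array per condition there is no replicate check, no test was run, and each SD is technical. The SD of an intensity or ratio is over 4 spots of 1 array, and that of a log2 fold is over 4 spot positions matched between arrays. In whole embryos, fewer cells with a miRNA and less of it per cell cannot be told apart.

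**Figure D1:**
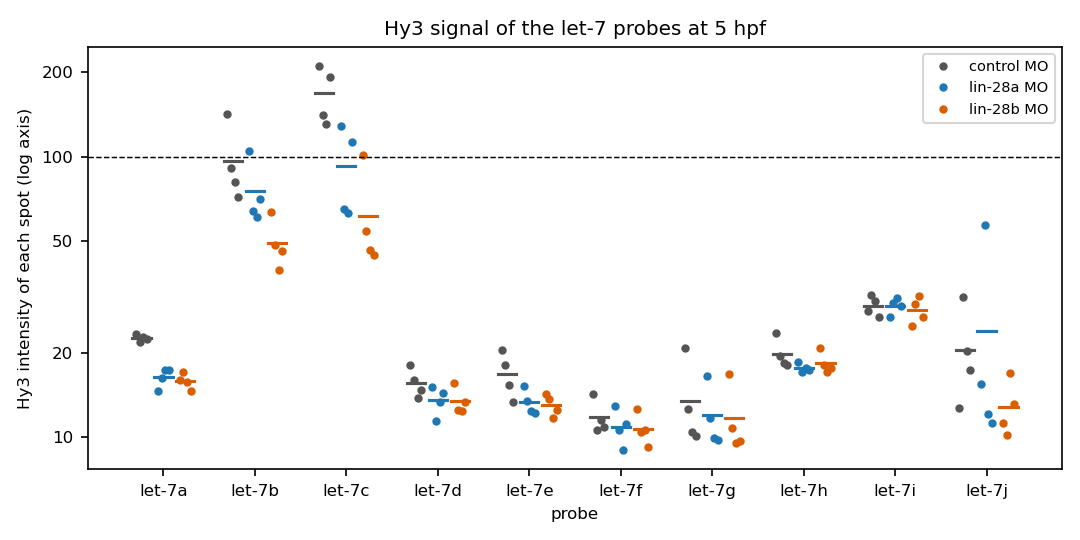
Hy3 intensity (log axis) of each of the 4 spots of the 10 *let-7* probes in embryos injected with control MO (grey), *lin-28a* MO or *lin-28b* MO, with a bar at the mean of each probe and a dashed line at 100. Among probe means, let-7c on the control MO array (168) lies above the line. At let-7b and let-7c the Hy3 of the morphants is below control at every matched spot, as it is at the dimmer let-7a, let-7d, let-7e, let-7g and let-7h.

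On the unscaled ratios, no member of the family was 1.5-fold higher or lower in either morphant, but other processing placed up to 3 members past that limit in *lin-28a* morphants and up to 6 in *lin-28b* morphants. The 6 came from Hy3 scaled to bright probes, which shifted every probe of an array alike. Shares of all zebrafish miRNA probes past the limit under other processing are not given, so nothing about the family was read from those counts. With the unscaled ratios, 0 of 10 members passed 1.5-fold in *lin-28a* morphants, against 8.61% of the 209 zebrafish miRNA probes whose spot CV was under 50% on both arrays. In *lin-28b* morphants 0 of 10 passed it, against 6.19% of 210. The nearest were dre-let-7f in *lin-28a* morphants, lower by 1.49-fold, and dre-let-7d in *lin-28b* morphants, higher by 1.45-fold. The median log2 fold of the 10 ratios over control was -0.13 in *lin-28a* morphants, against -0.15 over all 218 zebrafish miRNA probes. In *lin-28b* morphants it was -0.19, also against -0.15. In each morphant 7 members lay below control and 3 above, beside 155 and 152 of the 218 zebrafish miRNA probes below control. Centring the arrays on all unnamed probes turned the medians of the family to 0.12 and 0.01. That centring took the same value, -0.25 and -0.21, off the log2 fold of every probe, so the median over all zebrafish miRNA probes moved up with it. By single spots, the ratio was higher than at the matching control spot in 20 of 40 *let-7* spots and lower in 20 in *lin-28a* morphants. The numbers for *lin-28b* morphants were 17 and 23 of 40. These spots are technical repeats, and matching spot counts over all probes are not given.

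**Figure D2:**
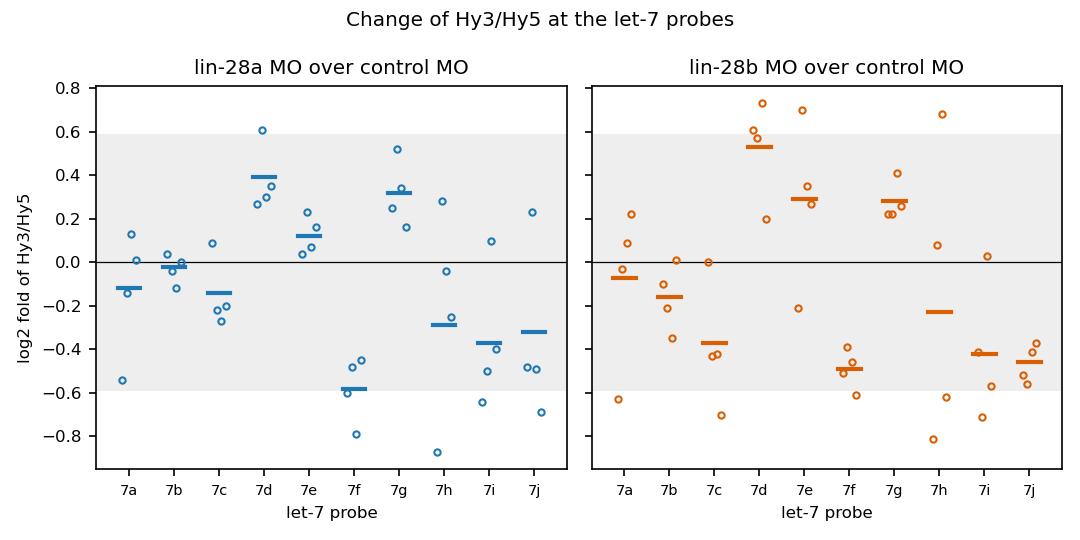
Log2 fold of Hy3/Hy5 over control MO for the 10 *let-7* probes in *lin-28a* morphants (left) and *lin-28b* morphants (right), with circles for the 4 spot positions, bars for the fold of the mean ratios and a grey band for changes within 1.5-fold. All 20 bars lie within the band, the lowest at -0.58 (let-7f, *lin-28a* MO) and the highest at 0.53 (let-7d, *lin-28b* MO); signs depend on the scaling, as the text gives.

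At a looser limit, a ratio over 25% higher than control or over 20% lower, dre-let-7f, dre-let-7i and dre-let-7j were lower in *lin-28a* morphants, which is 3 of 10 members against 30.1% of the 209 zebrafish miRNA probes tested. In the other direction, dre-let-7d was higher, 1 of 10 against 7.18%. In *lin-28b* morphants dre-let-7c, dre-let-7f, dre-let-7i and dre-let-7j were lower, 4 of 10 against 22.9% of 210 tested, and dre-let-7d was again the member that was higher, 1 of 10 against 8.10%. Counted by spots, all 4 ratios lay below all 4 control ratios for dre-let-7f in *lin-28a* morphants (1 of 10 against 18.2%) and for dre-let-7f and dre-let-7j in *lin-28b* morphants (2 of 10 against 13.8%). All 4 lay above control for dre-let-7d and dre-let-7g in *lin-28a* morphants (2 of 10 against 2.39%) and for dre-let-7d in *lin-28b* morphants (1 of 10 against 2.38%). The members are 10 related probes, so nothing about the family was read from these shares, and both morphants were set against the same control MO array.

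The member that passed the Hy3 limit of 100 in control, dre-let-7c, had a ratio slightly below control in both morphants. Its Hy3 in the 4 spots was 210, 141, 131 and 192 in control, 129, 65.0, 62.7 and 113 with the *lin-28a* MO, and 101, 54.1, 46.3 and 44.7 with the *lin-28b* MO. The Hy3 of every spot was thus lower in either morphant than at the same position on the control array. The Hy5 of the same probe moved with it, from a mean of 163 ± 33.5 on the control MO array to 97.2 ± 25.2 and 75.1 ± 15.4 on the morphant arrays (SD over 4 spots). Other bright probes were also dimmer there. Across the 46 unnamed ones that exceeded 100 in Hy3 each time, the median log2 change with the *lin-28a* MO was -0.31 in Hy3 and -0.28 in Hy5. With the *lin-28b* MO it was -1.15 and -0.94. For dre-let-7c these changes were -0.87 and -0.75, and -1.45 and -1.12. The ratio, in which a change common to both dyes cancels, was 1.03 ± 0.04 in control, 0.933 ± 0.125 with the *lin-28a* MO and 0.795 ± 0.164 with the *lin-28b* MO. Its log2 fold was -0.14 (SD over spot positions 0.16) in *lin-28a* morphants, smaller than that SD, and turned to 0.11 after centring on all unnamed probes. In *lin-28b* morphants the log2 fold was -0.37 (SD 0.29), and the spots still overlapped with control because the first spot was at 1.03 on both arrays. Under the 10 alternatives computed the value lay between -1.45, with unscaled Hy3 alone, and -0.17. The alternatives reuse the same spots, so they are not separate checks. The probe was also singled out by its high control signal, which itself favours folds below 0. No fall of dre-let-7c was therefore read from the sign.

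For dre-let-7b, which like dre-let-7c kept a mean Hy3 over 40 on every array, the ratios were closer still. The Hy3 means were 96.5 ± 31.4 in control, 75.2 ± 20.3 with the *lin-28a* MO and 49.4 ± 10.3 with the *lin-28b* MO, and the Hy5 means were 95.3 ± 23.1, 75.8 ± 12.3 and 54.8 ± 5.6. Sample and reference signal thus declined side by side. The ratios of 0.999 ± 0.076, 0.982 ± 0.106 and 0.896 ± 0.109 overlapped on all 3 arrays. Log2 folds of -0.02 (SD 0.07) and -0.16 (SD 0.15) were within about 1 spot SD of 0, and both turned positive, to 0.07 and 0.03, after centring on bright unnamed probes. Beside these, the 4 bright probes of the miR-430 family, the abundant miRNAs of early zygotic transcription, had log2 folds between -1.08 and -0.70 in *lin-28a* morphants and between -0.96 and -0.67 in *lin-28b* morphants. Their Hy3 changed by -1.14 to -0.45 and by -1.79 to -0.53, and their Hy5 by -0.38 to 0.52 and by -0.85 to 0.14. A dim miR-430 probe, miR-430i, was at -0.25 and 0.01. These are unscaled values, and the other scalings given for *let-7* are not given for miR-430. The difference between the families was not tested.

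**Figure D3:**
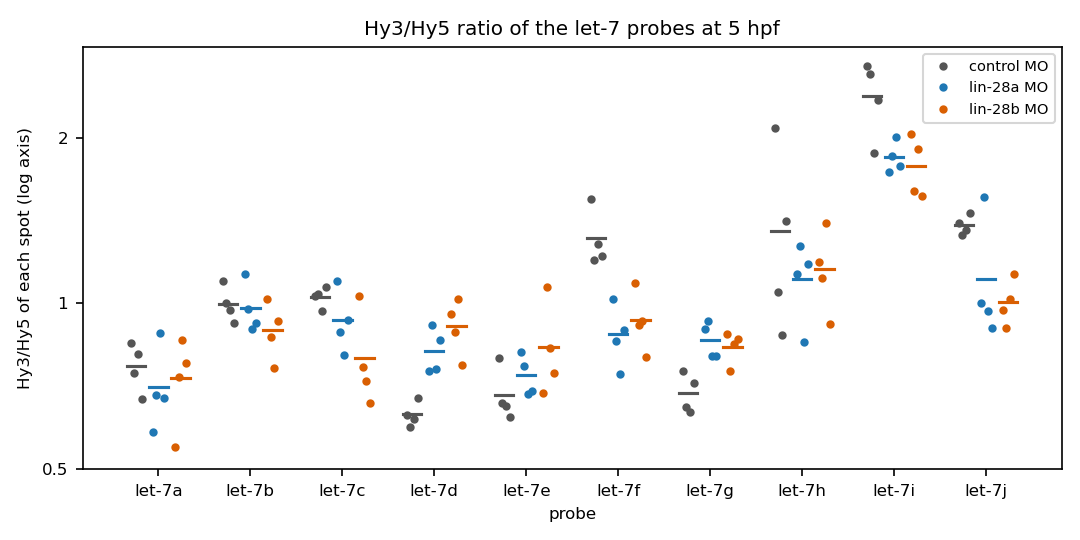
Hy3/Hy5 ratio (log axis) of each of the 4 spots of the *let-7* probes under control MO (grey), *lin-28a* MO and *lin-28b* MO, with a bar at the mean. At let-7b the spots of all 3 arrays overlap, at let-7d those of both morphants lie above control, and at let-7f those of both morphants lie below it; the direction at let-7d turned when unscaled Hy3 was used by itself, and that at let-7f when Hy3 was scaled to bright probes.

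In the dim range, dre-let-7d, dre-let-7e and dre-let-7g had higher ratios in both morphants, without a higher unscaled Hy3. For dre-let-7d the spot ratios were 0.627, 0.597, 0.616 and 0.674 in control, 0.755, 0.912, 0.760 and 0.857 in *lin-28a* morphants, and 0.957, 0.887, 1.02 and 0.773 in *lin-28b* morphants. Both morphants lay above control with no overlap. The log2 folds were 0.39 (SD 0.16) and 0.53 (SD 0.23), and both turned to below 0 with unscaled Hy3 alone, at -0.21 and -0.22. Its mean Hy3 was 15.6 in control, 13.5 with the *lin-28a* MO and 13.4 with the *lin-28b* MO, while the Hy5 of the reference was 24.9, 16.7 and 14.9. The higher ratio of dre-let-7d thus went with a lower Hy5 and, unscaled, with no higher Hy3. Scaled to bright probes, its Hy3 was at a log2 fold of -0.03 in *lin-28a* morphants but at 0.87, past 1.5-fold higher, in *lin-28b* morphants.

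The same order of the dyes held at the others of this trio. For dre-let-7e the ratio changed by a log2 fold of 0.12 (SD 0.08) and 0.29 (SD 0.38), those of Hy3 were -0.33 and -0.37, and those of Hy5 were -0.45 and -0.61. For dre-let-7g the ratio was at 0.32 (SD 0.15) and 0.28 (SD 0.09), Hy3 at -0.17 and -0.20, and Hy5 at -0.48 and -0.47. At all of these probes unscaled Hy3 was lower in both morphants and Hy5 lower by more. Hy3 scaled to bright probes, a shift common to all probes of an array, was at -0.16 for dre-let-7e and 0.01 for dre-let-7g in *lin-28a* morphants. In *lin-28b* morphants it turned to 0.72 and 0.88.

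The 7 members with lower ratios did not share 1 pattern in the reference channel. At dre-let-7a, dre-let-7b and dre-let-7c Hy5 was below control in both morphants, as in the trio with higher ratios, and Hy3 was lower by more. At dre-let-7f and dre-let-7i Hy5 was above control in both. At dre-let-7j its log2 change was 0.37 in *lin-28a* morphants but -0.22 in *lin-28b* morphants, and at dre-let-7h it was 0.03 in both. For dre-let-7f the spot ratios were 1.55, 1.20, 1.28 and 1.22 in control, 1.02, 0.855, 0.744 and 0.895 in *lin-28a* morphants, and 1.09, 0.912, 0.930 and 0.80 in *lin-28b* morphants. All spots of both morphants were below all control spots. Its log2 folds were -0.58 (SD 0.15) and -0.49 (SD 0.09), and turned to 0.06 and 0.94 when Hy3 alone, scaled to bright probes, was read. The Hy3 means of dre-let-7f, 11.8 ± 1.6, 10.9 ± 1.6 and 10.7 ± 1.4, differed by less than their spot SDs. Its Hy5 was 8.98 ± 0.14, 12.4 ± 0.2 and 11.5 ± 0.1, with SDs far smaller than the steps between arrays.

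These Hy5 values are where the Hy5 of each array piled up. The densest stretch of 1 intensity unit held 16.0% of the 9244 spots of 4-spot probes in control, from 8.28 to 9.28. With the *lin-28a* MO it held 35.5%, from 11.7 to 12.7, and with the *lin-28b* MO 29.5%, from 10.8 to 11.8. All 4 spots of dre-let-7f were inside that stretch on every array, so the ratio of this probe was taken over the low end of the reference channel each time. Of 40 *let-7* spots, 5, 10 and 9 were inside it on the 3 arrays, the others being spots of dre-let-7d (1, *lin-28a* MO array), dre-let-7g (3 and 2, morphant arrays) and dre-let-7j (1, 2 and 3). In Hy3 the densest stretch held 5.56%, 7.03% and 6.75% of spots and began at 10.1, 10.2 and 10.6. The place of the densest stretch thus differed between arrays in Hy5 and barely in Hy3. In Hy3 this stretch spanned the 25th percentile of the unnamed probes in control (10.5) and lay above it on the morphant arrays (9.47 and 9.26). In Hy5 it lay below that percentile in control (10.6) and spanned it on the morphant arrays (12.4 and 11.6).

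**Figure D4:**
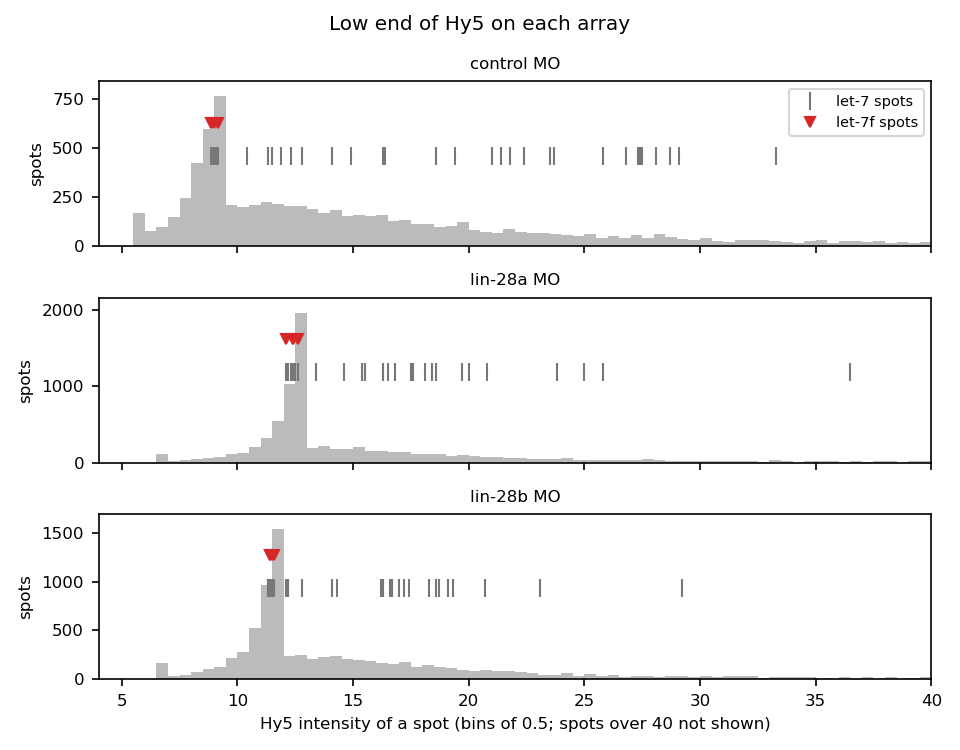
Number of spots (of probes with 4 spots) by Hy5 intensity below 40 in bins of 0.5, in 1 panel per array, with a tick for each *let-7* spot and a red triangle for each let-7f spot. The densest stretch of 1 unit begins at 8.28, 11.7 and 10.8 on the control MO and then the morphant arrays, and the let-7f spots lie within it on each.

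For dre-let-7i, Hy3 was nearly equal on all arrays, at 29.4 ± 2.4 in control, 29.4 ± 1.9 with the *lin-28a* MO and 28.3 ± 3.2 with the *lin-28b* MO. Its Hy5 of 12.6 ± 2.6, 15.9 ± 0.5 and 16.1 ± 2.8 gave ratios of 2.38 ± 0.37, 1.84 ± 0.12 and 1.78 ± 0.23. The log2 folds of -0.37 and -0.42 (SD 0.32 for both) came with 3 of 4 spots lower and overlapping spot ranges, and turned to 0.17 and 1.02 on scaled Hy3 by itself. For dre-let-7h, with log2 folds of -0.29 (SD 0.48) and -0.23 (SD 0.68), the spots spread more than the change, the sign turned to 0.11 and 0.05 once a part of the Hy5 low end was subtracted and to 0.97 in *lin-28b* morphants on scaled Hy3 by itself, and the control spots alone had a CV of 39.4%.

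The probe for dre-let-7j was the single member whose mean Hy3 was higher than control in a morphant, and that mean rested on 1 spot. On the *lin-28a* MO array its Hy3 was 15.4, 57.0, 12.1 and 11.2, against 12.7, 31.5, 20.2 and 17.4 in control and 11.2, 10.2, 16.9 and 13.1 with the *lin-28b* MO. The spot at 57.0 was more than 4 times the median of its probe, and no other *let-7* spot on any array was. The ratio of dre-let-7j was 1.39 ± 0.06, 1.11 ± 0.31 and 1.01 ± 0.10. Its log2 fold of -0.32 (SD 0.41) in *lin-28a* morphants became -0.55 without that spot position, and turned to 0.23 with unscaled Hy3 alone. In *lin-28b* morphants it was -0.46 (SD 0.09) with all spots below control, and turned to 0.41 on scaled Hy3 by itself and to 0.17 with the Hy5 low end reduced.

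The remaining probe, dre-let-7a, which reads the member with the most gene copies, had ratios of 0.768 ± 0.077, 0.706 ± 0.126 and 0.731 ± 0.132. Its log2 folds of -0.12 (SD 0.29) and -0.07 (SD 0.38) were smaller than their spot SDs and changed sign under 3 and 5 of the 10 alternatives, reaching 0.27 and 0.57. Its Hy3 was 22.5 ± 0.6 in control and 16.4 ± 1.3 and 15.8 ± 1.0 in the morphants, with no overlap between control and either morphant, and its Hy5 was 29.5 ± 2.6, 23.6 ± 2.7 and 22.3 ± 5.1.

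Set apart by dye and without scaling, the mean Hy3 was lower in 9 of 10 members in *lin-28a* morphants, where dre-let-7j was higher (log2 change 0.23) and dre-let-7i nearly equal (-0.00). It was lower in 10 of 10 in *lin-28b* morphants. Over all zebrafish miRNA probes it was lower in 148 and 145 of 218, with median log2 changes of -0.10 and -0.09 against -0.19 and -0.29 for the family. By spots, Hy3 was below the matching control spot in 34 of 40 *let-7* spots with the *lin-28a* MO (1 was equal) and in 39 of 40 with the *lin-28b* MO, and the log2 change of the mean lay between -0.87 and 0.23 and between -1.45 and -0.06. The mean Hy5 was lower in 6 and 7 of 10 members, against 109 and 104 of 218 zebrafish miRNA probes, and Hy5 was below control in 28 and 27 of 40 *let-7* spots. The spots are technical repeats of related probes, and matching spot counts over all probes are not given. Nothing about the family was therefore read from the spot counts. As read from Hy3 without scaling, no member was 1.5-fold higher in either morphant. The direction depended on the scaling, since dividing each *lin-28b* MO value by the fall of bright probes (log2 of -1.08 over 51 probes) turned the median Hy3 change of the family from -0.29 to 0.79 and placed 6 dim members, dre-let-7d to dre-let-7i, past 1.5-fold higher. This scaling raised every probe of that array by the same amount, although the median unscaled Hy3 change over the 2082 unnamed probes was only -0.11. The share of all zebrafish miRNA probes past 1.5-fold under this scaling is not given, so nothing about the family was read from the 6. The unscaled median over all 218 zebrafish miRNA probes, -0.09, was already above the -0.29 of the family. No rise particular to *let-7* was therefore read from the scaled values. The part of the array's brightness and of the Hy5 low end in these values was not tested.

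**Figure D5:**
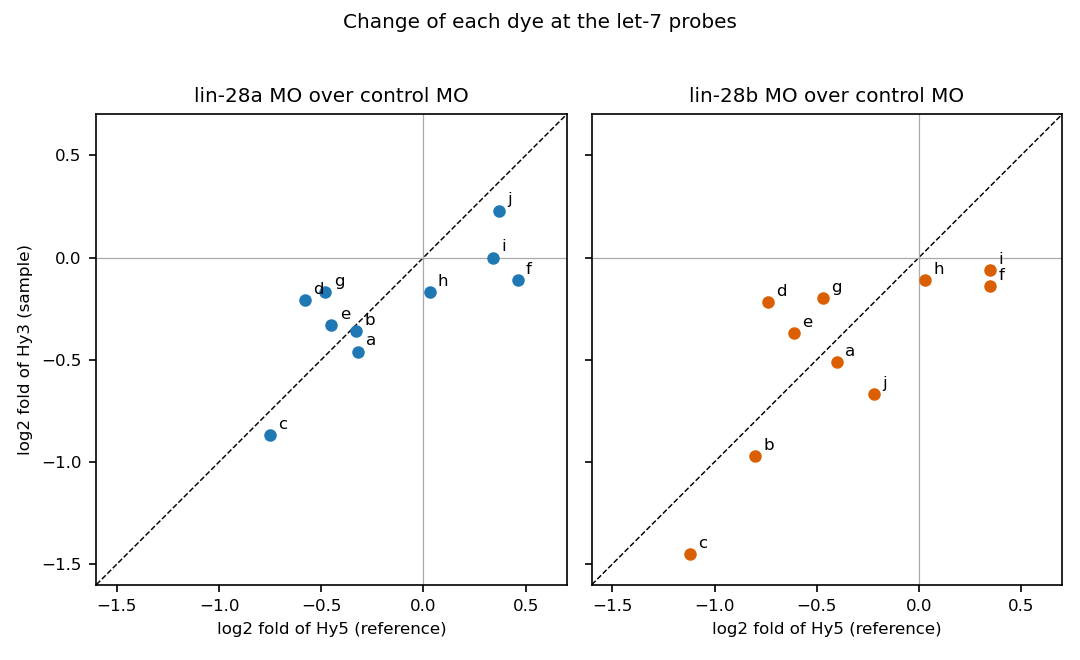
Log2 fold over control MO of the sample signal Hy3 (vertical) against that of the reference signal Hy5 (horizontal) for each *let-7* probe, named by its letter, in *lin-28a* morphants (left) and *lin-28b* morphants (right). Points on the dashed line have an unchanged ratio. The lowest in both dyes is let-7c (-0.87 and -0.75, and -1.45 and -1.12). Above the line lie let-7d, let-7e and let-7g, with both dyes lower. All other members lie below it, among them let-7a, let-7b and let-7c with both dyes lower, and let-7f and let-7i at a higher Hy5. All values are without scaling between arrays.

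Set directly against each other, the morphants spanned a narrower range. The log2 folds of *lin-28b* MO over *lin-28a* MO lay between -0.23 (dre-let-7c) and 0.17, with a median of 0.01. Past 1.5-fold lay 0 of 10 members, against 0.930% of 215 zebrafish miRNA probes, and spot ranges without overlap were found for 0 of 10, against 7.44%. Whether the morphants resemble each other more than control cannot be read from this, because each condition is 1 array.

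A list of related miRNAs on the array held the *lin-4* homologs miR-125a, miR-125b and miR-125c of the heterochronic pathway. It also held miR-100 and miR-99, taken because their genes neighbour *let-7* genes. In *lin-28a* morphants their median log2 fold was 0.08, with 2 below and 3 above control, and in *lin-28b* morphants it was 0.16 with the same split. Over all 218 zebrafish miRNA probes the median was -0.15 in both, with 155 and 152 below control. miR-100, which missed the spot CV limit in control, is counted in the list. miR-125b, next to *let-7a* and *let-7c* genes, was at 0.08 (SD 0.09) and 0.16 (SD 0.20), and miR-125c, next to a *let-7c* gene, at 0.36 (SD 0.28) and 0.22 (SD 0.22). miR-99, the other neighbour of *let-7c*, was at 0.21 in both, with SDs of 0.43 and 0.69. miR-125a, whose genes neighbour both *let-7d* genes, was at -0.07 (SD 0.07) and -0.29 (SD 0.13). Its genes beside 2 of the *let-7a* genes, miR-100 was at -1.05 (SD 0.70) and -0.64 (SD 0.42), past 1.5-fold. However, its control ratio had a spot CV of 50.7%, above the limit of 50%. The control spots had ratios of 0.446, 0.557, 0.381 and 1.07, so the last of them raised the control mean. All of these probes were dim, with a mean Hy3 of at most 32.8.

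Among the 9 zebrafish miRNAs with Hy3 over 100 on at least 1 array, the pair of log2 folds nearest to that of dre-let-7c was miR-7a (-0.24 and -0.39), at a Euclidean distance of 0.10 over the 2 comparisons. Next were miR-148 (-0.12 and -0.50) at 0.14 and miR-203a (-0.13 and -0.66) at 0.29. The other bright miRNAs, miR-17a* and 4 of the miR-430 family, were at 0.68 or more. Only 2 values enter each distance, both over the same control array. dre-let-7c, miR-7a and miR-148 passed the Hy3 limit on the control MO array alone, and miR-203a did not pass it with the *lin-28b* MO. A choice of probes by high control signal itself favours folds below 0, so no likeness was read from these distances.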

How the data were processed

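Array labelling and scanning were done by a service company per the study's methods. The deposited spot table holds Hy3 and Hy5 intensity for 9984 spots per array. The authors' second table holds the Hy3/Hy5 ratio of 208 miRNAs, including the 10 *let-7* members, and differs from the mean spot ratios used here by at most 0.250% for them. How the authors read the images or corrected background and dyes was not given in the sources used here. Nothing was subtracted or scaled here in the main values, and values after centring, scaling or subtraction are named as such. A fold is a morphant's mean spot ratio over that of control MO, its SD is over 4 position-matched spots, and calls needed 1.5-fold and a spot CV under 50% on both arrays. Members, lists and alternatives were chosen with earlier results of these data known. All 10 members, the miR-125, miR-100 and miR-99 probes, and the 3 bright miRNAs nearest in folds to a bright member were named by rule. The 1 array per condition limits the precision. Gene names and neighbours came from RefSeq (GRCz12tu). The computation was tested on simulated data. Python 3.11.15, numpy 2.4.6, pandas 2.3.3 and statsmodels 0.14.6 (loess) were used.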

Additional observations from a re-analysis of the deposited data

How the results depend on the processing

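No paired analysis was possible because each condition is 1 array. In *lin-28a* morphants the family median of -0.13 moved to 0.12 when arrays were centred on all unnamed probes and to 0.09 when Hy5 was reduced by 80% of its densest level, an alternative chosen after seeing the data. In *lin-28b* morphants the median of -0.19 moved to 0.01 and 0.11 under the same settings, to -0.01 when centred on bright unnamed probes, and to 0.79 with Hy3 alone scaled on bright probes. The count of members past 1.5-fold, 0 in both morphants, became 1 in *lin-28a* and 1 in *lin-28b* morphants when centred on all unnamed probes (let-7d, higher), 1 in *lin-28b* morphants when centred on bright ones (let-7d), and 1 and 1 with loess (let-7g and let-7d, higher). It became 3 and 4 with the 1st percentile of each channel subtracted (let-7d and let-7g higher and let-7f lower in both, let-7e higher in *lin-28b* morphants), 3 and 3 with the reduced Hy5 (let-7d, let-7e and let-7g, higher), 1 and 3 with unscaled Hy3 (let-7c lower in both, let-7b and let-7j lower in *lin-28b* morphants), and 1 (let-7c, lower) and 6 (higher) with scaled Hy3. Leaving out single spots gave at most 1 in each (let-7f lower, let-7d higher), and the looser limit of 25% higher or 20% lower gave 4 and 5. The cause of these moves was not tested, and matching medians and shares over all zebrafish miRNA probes are not given. Over 10 alternatives, the sign of the log2 fold held for 0 of 10 members in *lin-28a* morphants and for 1, let-7c, in *lin-28b* morphants. At let-7d, let-7e, let-7f, let-7g, let-7i and let-7j in *lin-28a* morphants, it changed only where Hy3 was read without the reference. The same was true of let-7d, let-7e, let-7f, let-7g and let-7i in *lin-28b* morphants. All alternatives reuse the same spots, so a sign that held is no separate check. At a limit of 2-fold or with Hy3 over 100 required, which leaves let-7c alone, the counts were 0. Both follow from the 0 at 1.5-fold, so they add no check.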

Other observations

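The first of a probe's 4 spots had the highest median Hy3 on all arrays. Over 2082 unnamed probes, its Hy3 was 1.21 times the mean of its probe in control, 1.13 times with the *lin-28a* MO and 1.18 times with the *lin-28b* MO, and over the *let-7* probes 1.19, 1.13 and 1.14 times. In the ratio the factors over unnamed probes were 1.08, 1.07 and 1.08. The spot SDs given for a single array include this trend, while those of the folds are over matched positions.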
